A study of Mus musculus with 9 samples.

Results

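Tsc2 siRNA-treated primary mouse microglia were compared with control siRNA-treated primary mouse microglia, and these 2 groups made up 6 of the 9 RNA-seq libraries of the study. The libraries were chosen by the siRNA named in the sample descriptions, 3 for each siRNA, and each Tsc2 siRNA library was set against the control siRNA library with the same replicate number, 1, 2, or 3. All cells were C57BL/6J, came from mixed glial cultures of E18 embryonic brains, and carried no engineered allele. Control cells received a negative control siRNA with the same lipid reagent, and total RNA was isolated after 3 days of siRNA treatment. The biological replicates of the study were cultures from distinct brains, and the sex of the embryos was not given in the sources used here. The sources differed on lipopolysaccharide (LPS), because the study's results describe stimulated cells whereas the RNA methods and the sample descriptions name no LPS. Elsewhere the study's methods list experiments run without LPS, and the sequencing is not among them. The other 3 libraries, from Chd8 siRNA-treated microglia, were in the same fit and served to test whether a gene differed between the knockdowns.

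TSC2 (tuberin) forms a complex with TSC1 that switches off the small GTPase Rheb and thereby holds back the kinase complex mTORC1. Active mTORC1 promotes the translation of ribosomal protein mRNAs and lipid synthesis and restrains autophagy, and inherited loss of TSC1 or TSC2 causes tuberous sclerosis, in which autism is common. Microglia are the resident macrophages of the brain, which clear debris, present antigen, and release cytokines and chemokines.

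Total counts were between 16913448 and 33213801 per library, and a value of 3 counts, used here as the detection floor, equalled 0.0903 to 0.177 CPM (counts per 1000000, scaled with edgeR's TMM factors). Such floors cover counting error only. Of 12 microglia and macrophage markers, all 12 were in the table and none was at 3 counts or fewer in every library, and their summed level was 3160 to 3800 CPM in control siRNA and 3710 to 4030 CPM in Tsc2 siRNA. The 12 astrocyte markers summed to 49.7, 69.2, and 165 CPM in control siRNA 1, 2, and 3 and to 45.2, 68.5, and 101 CPM in Tsc2 siRNA 1, 2, and 3, and the 12 fibroblast, mural, and endothelial markers to 61.9 to 201 CPM and 65.3 to 154 CPM. Oligodendrocyte lineage markers summed to 98.5 to 142 CPM in control siRNA and 85.7 to 134 CPM in Tsc2 siRNA, neuronal markers to 6.26 to 22.7 CPM and 4.97 to 8.79 CPM, border macrophage markers to 386 to 429 CPM and 484 to 560 CPM, and neutrophil and lymphocyte markers to 7.17 to 10.2 CPM and 9.24 to 10.1 CPM. The border macrophage marker Lyve1 and the neutrophil or lymphocyte markers Elane, Ly6g, Ncr1, Nkg7, and S100a9 were at 0 in all 6 libraries. In such cultures, fewer cells of a type and less RNA per cell cannot be told apart.

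The targeted gene came first. Tsc2 (chr17:24595816-24632630 of GRCm38) was at 40.8, 39.9, and 38.9 CPM in control siRNA 1, 2, and 3 and at 24.6, 30.6, and 36.5 CPM in Tsc2 siRNA 1, 2, and 3. Every Tsc2 siRNA library lay below every control library, but the distance differed between replicate numbers, with log2 differences of −0.73, −0.38, and −0.09. The log2 fold change was −0.39 (standard error, SE, 0.12), which is 0.761 of the control level, with an edgeR adjusted p = 0.219, and it lay between −0.53 and −0.24 when one library was left out. A two-sided exact permutation test of 3 libraries against 3 gave p = 0.1, the smallest p it allows. Tsc2 mRNA was therefore lower in all 3 Tsc2 siRNA libraries but was not called, and the library labelled Tsc2 siRNA 3 differed least from its control. In the Chd8 siRNA libraries Tsc2 was at 38.6, 38.6, and 40.1 CPM, and Chd8 was at 119, 89.8, and 101 CPM in the Tsc2 siRNA libraries against 118, 97.4, and 93.6 CPM in control siRNA. The annotation places the end of Pkd1, on the opposite strand, over the end of Tsc2. Tsc1, the partner of Tsc2, was at 30.2, 24.5, and 23.7 CPM in control siRNA and 28.4, 29.5, and 26.1 CPM in Tsc2 siRNA.

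Across all genes, 63 of 16273 were called between Tsc2 siRNA and control siRNA, which is 0.387% of the genes tested. Calls required a Benjamini-Hochberg FDR under 0.05 together with a change of at least 1.5-fold in edgeR's quasi-likelihood test with the replicate number as a block. Of these, 31 were higher (0.19%) and 32 lower (0.197%) in Tsc2 siRNA, and 58 were protein coding. Without the fold threshold 104 genes passed (0.639%), 61 higher and 43 lower. All 63 called genes moved in one direction at all 3 replicate numbers, as did 15.5% of all genes tested upward and 16.3% downward, and in 28 of 63 the 3 Tsc2 siRNA libraries did not overlap with the 3 control libraries, against 7.9% of all genes tested. These were 13 of the higher genes and 15 of the lower genes, beside 3.75% and 4.15% of all genes. The same libraries chose these genes, so both shares only describe them. The calls rested on the block, because without it edgeR called 0 genes, with 425 at an unadjusted p under 0.05. They also rested on single libraries, and between 7 (without control siRNA 3) and 131 (without Tsc2 siRNA 1) genes were called when one library was left out. Fgl2, Ifi27l2a, Csf3, Spp1, and Neat1 were called in all 6 of those fits, and 6 genes in none.

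**Figure D1:**
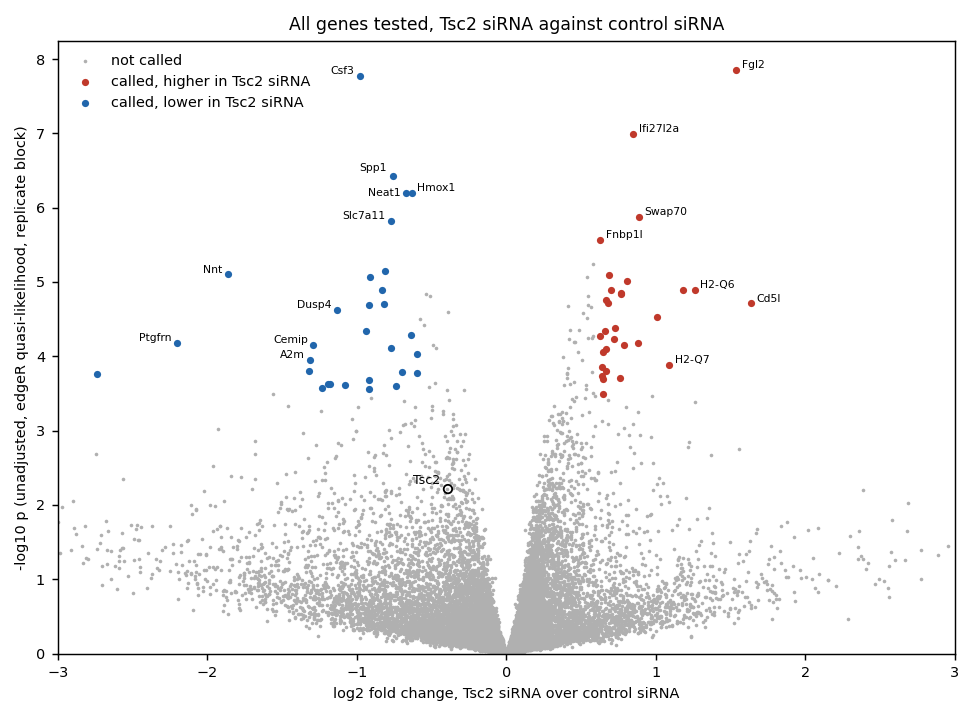
Each point is one of the 16273 genes tested, with the log2 fold change of Tsc2 siRNA over control siRNA on the horizontal axis and −log10 of the unadjusted edgeR p on the vertical axis. Red and blue points are the called genes, the open circle is Tsc2 at −0.39, and 47 genes, 3 of them called, lie beyond 3 log2 units and are not drawn.

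Among the higher genes, Fgl2 ranked first by p and encodes a fibrinogen-like protein that acts as a membrane prothrombinase and as a secreted immune regulator. Fgl2 (chr5:21372642-21378374) was at 136, 119, and 47.4 CPM in control siRNA and 266, 369, and 189 CPM in Tsc2 siRNA. The groups did not overlap, and the log2 fold change was 1.54 with an SE of 0.14 (edgeR adjusted p = 0.000137). Ifi27l2a (chr12:103442167-103443680), an interferon-induced gene, was at 48.9, 57.8, and 38.6 CPM in control siRNA and 90.7, 98.2, and 71.4 CPM in Tsc2 siRNA, again without overlap, and its log2 fold change was 0.85 (SE 0.09, edgeR adjusted p = 0.000551). Both kept their calls whichever library was left out.

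Genes of MHC class I antigen presentation, which shows peptides from inside the cell to CD8 T cells, lay mostly above their controls. Of 25 list members tested, 2 were called higher and 0 lower, against 0.19% and 0.197% of all genes, 13 had an unadjusted p under 0.05 on the higher side and 0 on the lower side, against 5.44% and 5.23% of all genes, and 14 were higher at all 3 replicate numbers. The median log2 fold change of the list was 0.17, beside −0.01 over all genes tested. In Chd8 siRNA against the same control libraries the list median was also 0.17. Border macrophage markers separated the groups as well, with sums of 410, 386, and 429 CPM in control siRNA and 508, 484, and 560 CPM in Tsc2 siRNA. Most of that sum was Ms4a7, which passed the FDR at 326, 325, and 318 CPM against 409, 442, and 452 CPM (log2 fold change 0.43, edgeR adjusted p = 0.0158), whereas Mrc1 had −0.08 and Lyve1 was at 0, and their part in the class I result was not tested. The called genes were H2-Q6 and H2-Q7, neighbouring class Ib genes. H2-Q6 (chr17:35424850-35430055) was at 177, 69.3, and 60.4 CPM in control siRNA and 243, 195, and 199 CPM in Tsc2 siRNA. H2-Q7 (chr17:35439155-35443773) was at 142, 63.9, and 62.0 CPM and at 165, 158, and 189 CPM. In both genes control siRNA 1 was far above the other control libraries but still below every Tsc2 siRNA library, and the log2 fold changes were 1.26 (SE 0.20, edgeR adjusted p = 0.00995) and 1.09 (SE 0.21, edgeR adjusted p = 0.0296).

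These class Ib genes share sequence, since 50.3% of the 31-base words of H2-Q6 and 39.1% of those of H2-Q7 also occur in other genes. Reads could thus be split among genes. The gene that shared most words was H2-Q4 for H2-Q6 (24.6% of its words) and H2-Q10 for H2-Q7 (22.4%). The counts of H2-Q6 and H2-Q7 summed to 1 entry, a choice made after the data were seen, gave a log2 fold change of 1.19 with an edgeR adjusted p = 0.0125. That sum does not resolve reads shared with H2-Q4, H2-Q10, or other genes. Leaving out control siRNA 2, control siRNA 3, or Tsc2 siRNA 2 ended the call of H2-Q6, at adjusted p of 0.0746, 0.111, and 0.0923. H2-Q7 was lost without these libraries and without Tsc2 siRNA 3, at adjusted p of 0.185, 0.282, 0.208, and 0.191, and in DESeq2, at 0.0803. The classical class I gene H2-K1 passed the FDR below the fold threshold, at 1230, 1050, and 951 CPM in control siRNA and 1460, 1430, and 1370 CPM in Tsc2 siRNA, with a log2 fold change of 0.41 (edgeR adjusted p = 0.0322). H2-M3, which presents formylated peptides, passed likewise, with a log2 fold change of 0.58 (edgeR adjusted p = 0.0495). H2-D1 and B2m, the light chain that all class I molecules share, had values of 0.29 and 0.26 with edgeR adjusted p of 0.0806 and 0.108 and did not overlap between groups. The peptide transporter gene Tap1 was at 391, 592, and 416 CPM in control siRNA and 412, 599, and 437 CPM in Tsc2 siRNA, where the values of the groups lay side by side.

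In the type I interferon list, 66 genes were tested and 1 was called, Ifi27l2a, where 0.19% of all genes were called higher. An unadjusted p under 0.05 was found for 19 on the higher side and 3 on the lower side, against 5.44% and 5.23% of all genes. At all 3 replicate numbers 32 were higher and 4 lower, against 15.5% and 16.3%, and the median log2 fold change was 0.09. In Chd8 siRNA against the same control libraries the list median was 0.14. Oasl1, an antiviral protein of the 2'-5' oligoadenylate synthetase family, passed the FDR without the fold threshold, at 678, 606, and 387 CPM in control siRNA and 750, 837, and 610 CPM in Tsc2 siRNA (log2 fold change 0.43, edgeR adjusted p = 0.0418). Ifnb1, which encodes interferon beta itself, was at 6.75, 9.36, and 15.4 CPM in control siRNA and 6.36, 23.5, and 41.9 CPM in Tsc2 siRNA. Replicate number 1 showed no gain in Ifnb1 and numbers 2 and 3 did, and its log2 fold change of 0.97 had an edgeR adjusted p = 0.101. Ifnb1 was called higher in limma-voom, without a filter on low counts, and in the fits without control siRNA 1 or Tsc2 siRNA 1, and not in DESeq2 or the other leave-one-out fits. The interferon-stimulated genes Isg15, Ifit1, and Mx1 did not pass the FDR, with log2 fold changes of 0.17, 0.08, and 0.10.

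Chemokine genes included 3 called higher and 0 called lower of 30 tested, against 0.19% and 0.197% of all genes, with a median log2 fold change of 0.13. An unadjusted p under 0.05 was found for 11 on the higher and 5 on the lower side, against 5.44% and 5.23% of all genes. In Chd8 siRNA against the same control libraries the list median was 0.18. Ccl22, a ligand of CCR4 that attracts regulatory T cells, was at 18, 113, and 61.2 CPM in control siRNA and 24.6, 233, and 103 CPM in Tsc2 siRNA, with a log2 fold change of 0.77 (SE 0.12, edgeR adjusted p = 0.00995). Replicate numbers differed more than siRNAs, so the groups overlapped although each Tsc2 siRNA library was above its own control. Cx3cl1 (fractalkine), the ligand of the microglial receptor CX3CR1, was at 18, 53, and 64.2 CPM in control siRNA and 20.1, 104, and 108 CPM in Tsc2 siRNA (log2 fold change 0.65, edgeR adjusted p = 0.0385). The neighbouring monocyte chemoattractant genes Ccl7 and Ccl12 passed the FDR with log2 fold changes of 0.54 and 0.55 (edgeR adjusted p = 0.00918 and 0.00995). Ccl2, Ccl3, Ccl5, and Cxcl10 had values of −0.22, −0.03, 0.12, and 0.09, and the neutrophil chemoattractant Cxcl3 had −0.69 with an edgeR adjusted p = 0.0858. Ccl22 lost its call without control siRNA 2, control siRNA 3, Tsc2 siRNA 2, or Tsc2 siRNA 3, at adjusted p of 0.0955, 0.0921, 0.115, and 0.0502, and so did Cx3cl1, at 0.266, 0.274, 0.332, and 0.242.

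The cytokine list held 27 tested genes, of which 1 was called in each direction, against 0.19% of all genes higher and 0.197% lower, and 7 on the higher and 5 on the lower side had an unadjusted p under 0.05. Il12b, the subunit that IL-12 and IL-23 share, was at 70.8, 479, and 527 CPM in control siRNA and 126, 862, and 682 CPM in Tsc2 siRNA, and its log2 fold change was 0.69 (SE 0.10, edgeR adjusted p = 0.00918). Replicate number 1 was several times lower than the others in both groups, and Il12b was higher in Tsc2 siRNA within each number. Without control siRNA 2 or Tsc2 siRNA 2 its adjusted p was 0.0653 and 0.0936. Ebi3, which pairs with IL-27 p28, passed the FDR with a log2 fold change of 0.54 (edgeR adjusted p = 0.0127) and did not overlap between groups. Spp1 (osteopontin, chr5:104435118-104441050), a secreted phosphoprotein abundant in activated microglia, was at 4420, 1690, and 2530 CPM in control siRNA and 3000, 873, and 1470 CPM in Tsc2 siRNA. The log2 fold change of Spp1 was −0.76 (SE 0.09, edgeR adjusted p = 0.00153), and it kept its call in every leave-one-out fit. The main proinflammatory cytokine genes did not pass the FDR. Tnf was at 1830, 5030, and 10600 CPM in control siRNA and 1250, 5980, and 9840 CPM in Tsc2 siRNA, and Il1b, Il6, and Il10 had log2 fold changes of 0.11, −0.30, and 0.22.

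Among the lower genes, Csf3 ranked first by p and encodes the granulocyte growth factor G-CSF. Csf3 (chr11:98701263-98703629) was at 167, 96.4, and 169 CPM in control siRNA and 77.1, 52.6, and 86.5 CPM in Tsc2 siRNA. Every replicate number showed close to the same distance, with log2 differences of −1.11, −0.87, and −0.96, and the log2 fold change was −0.98 (SE 0.09, edgeR adjusted p = 0.000137). It was the single called gene of 12 tested in the colony-stimulating factor list, where 0.197% of all genes were called lower, and the median of the list was −0.22 with 4 genes lower and 0 higher at an unadjusted p under 0.05. The other growth factor genes gave 37.4, 111, and 207 CPM in control siRNA and 37.1, 121, and 144 CPM in Tsc2 siRNA for Csf1, and 0.00, 6.10, and 11.7 CPM and 0.213, 9.73, and 7.82 CPM for Csf2. Neither of these passed the FDR.

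**Figure D2:**
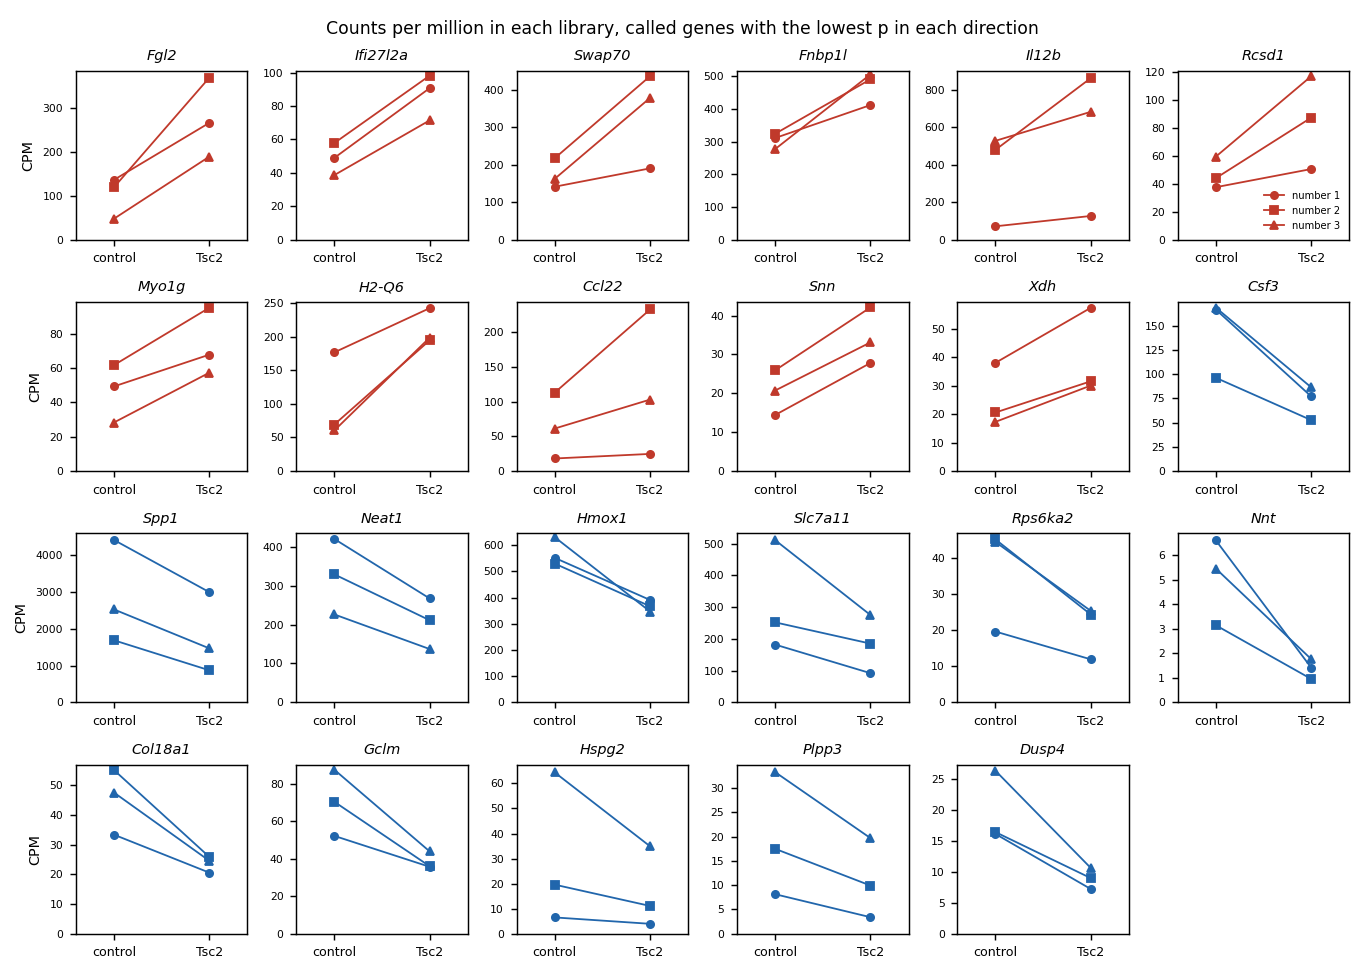
CPM on the vertical axis of each panel, control siRNA on the left and Tsc2 siRNA on the right, with a line joining the libraries of one replicate number. The 11 higher called genes shown (red) rise along all 3 lines and the 12 lower ones (blue) fall along all 3, all among those with the lowest p, while numbers differ widely in level, as in Il12b with 70.8, 479, and 527 CPM in control siRNA.

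A pair of enzymes that make inflammatory mediators were lower. Nos2, the inducible nitric oxide synthase, was at 796, 837, and 1020 CPM in control siRNA and 673, 460, and 426 CPM in Tsc2 siRNA, without overlap, and its log2 fold change was −0.77 (SE 0.14, edgeR adjusted p = 0.0202). Ptgs2 (COX-2), the inducible prostaglandin synthase, passed the FDR below the fold threshold, at 3670, 4670, and 4310 CPM against 2730, 3540, and 3410 CPM (log2 fold change −0.39, edgeR adjusted p = 0.0116). Of 25 tested genes on the list of oxidant and prostanoid enzymes 1 was called lower, against 0.197% of all genes, 5 were lower and 0 higher at an unadjusted p under 0.05, the median was −0.03, and Acod1, which makes itaconate, had a value of −0.07. Nfkbid, an atypical nuclear inhibitor of NF-kB, was the 1 called gene of 45 tested in the LPS sensing and NF-kB list, with 38.6, 44.0, and 48.5 CPM in control siRNA and 20.9, 30.9, and 36.2 CPM in Tsc2 siRNA (log2 fold change −0.60, edgeR adjusted p = 0.0225). Called lower were 0.197% of all genes, and the rest of this list lay more often on the other side, with 33 of 45 above 0 and 11 higher against 3 lower at an unadjusted p under 0.05. Tlr4, the LPS receptor, had a value of −0.09. Nfkbid was called in none of the leave-one-out fits, with adjusted p of 0.127, 0.101, and 0.0921 without control siRNA 1, 2, and 3 and 0.0705, 0.139, and 0.0802 without Tsc2 siRNA 1, 2, and 3. Nos2 was lost without control siRNA 2, control siRNA 3, Tsc2 siRNA 2, or Tsc2 siRNA 3, at 0.144, 0.201, 0.168, and 0.0738, and in DESeq2, at 0.0827.

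The antioxidant genes that the transcription factor NRF2 is known to drive lay mostly below their controls. NRF2 binds the antioxidant response element in promoters and enhancers of genes for glutathione synthesis, heme breakdown, and thiol reduction. Of 42 genes tested, 3 were called lower and 0 higher, against 0.197% and 0.19% of all genes, and 17 had an unadjusted p under 0.05 on the lower side and 0 on the higher side, against 5.23% and 5.44%. At all 3 replicate numbers 19 were lower and 2 higher, against 16.3% and 15.5% of all genes. The median log2 fold change was −0.20, with medians of −0.10, −0.23, and −0.23 at replicate numbers 1, 2, and 3. In Chd8 siRNA against the same control libraries the list median was −0.21, so this shift was not particular to Tsc2 siRNA. The list's own regulators gave 168, 123, and 151 CPM in control siRNA and 147, 119, and 129 CPM in Tsc2 siRNA for Nfe2l2, which encodes NRF2, and 39.6, 54.4, and 46.7 CPM and 53.4, 60.6, and 48.2 CPM for Keap1, its inhibitor. Neither passed the FDR, with log2 fold changes of −0.16 and 0.21.

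Hmox1, heme oxygenase 1, was at 552, 530, and 631 CPM in control siRNA and 391, 367, and 347 CPM in Tsc2 siRNA, a log2 fold change of −0.63 (SE 0.08, edgeR adjusted p = 0.00173). Slc7a11, the cystine importer that feeds glutathione synthesis, was at 182, 252, and 511 CPM and at 91.9, 185, and 275 CPM, a log2 fold change of −0.77 (SE 0.10, edgeR adjusted p = 0.00306). Gclm, the modifier subunit of the first enzyme of glutathione synthesis, was at 52.2, 70.4, and 87.5 CPM and at 35.7, 36.0, and 43.9 CPM, a log2 fold change of −0.83 (SE 0.13, edgeR adjusted p = 0.00995). In Hmox1 and Gclm the groups did not overlap, whereas in Slc7a11 they did, with control siRNA 1 below Tsc2 siRNA 2 and 3 and control siRNA 2 below Tsc2 siRNA 3. Srxn1, which repairs oxidized peroxiredoxins, passed the FDR below the fold threshold, at 122, 87.8, and 142 CPM against 89.5, 60.5, and 92.2 CPM (log2 fold change −0.54, edgeR adjusted p = 0.00995). Prdx1, Gclc, and Txnrd1 had log2 fold changes of −0.26, −0.43, and −0.19 with edgeR adjusted p of 0.137, 0.207, and 0.374, and Nqo1 was near the floor, at 0.716, 0.677, and 0.858 CPM and at 1.24, 0.501, and 1.79 CPM. Without control siRNA 3, 0 of the 42 genes were called, Hmox1 because its log2 fold change was then −0.54 and Slc7a11 and Gclm at adjusted p of 0.0559 and 0.0914, and the list's median was −0.12. Hmox1 was also under the fold threshold without Tsc2 siRNA 3, at −0.54, and Gclm was lost without control siRNA 2, Tsc2 siRNA 2, or Tsc2 siRNA 3, at adjusted p of 0.0653, 0.0974, and 0.0738. Control siRNA 3 also had the highest astrocyte marker sum of the controls, 165 CPM beside 49.7 and 69.2 CPM, and the lowest oligodendrocyte sum. The part of other cells in the NRF2 result was not tested.

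The promoters of Gclm, Slc7a11, and Srxn1 are shown because these genes of the list moved together and RefSeq gives their starts. The 250 bases before the start are printed from RefSeq on GRCm38.p6, at chr3:122245307-122245556 on the plus strand for Gclm, chr3:50443614-50443863 on the minus strand for Slc7a11, and chr2:152105274-152105523 on the plus strand for Srxn1. Capitals mark matches to the antioxidant response element, written TGACNNNGC, and to the AP-1 site, written TGACTCA, each on either strand.
Gclm: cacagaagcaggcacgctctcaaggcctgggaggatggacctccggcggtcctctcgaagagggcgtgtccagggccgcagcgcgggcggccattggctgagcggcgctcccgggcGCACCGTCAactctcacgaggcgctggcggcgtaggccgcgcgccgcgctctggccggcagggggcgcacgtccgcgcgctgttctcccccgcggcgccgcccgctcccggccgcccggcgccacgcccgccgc
Slc7a11: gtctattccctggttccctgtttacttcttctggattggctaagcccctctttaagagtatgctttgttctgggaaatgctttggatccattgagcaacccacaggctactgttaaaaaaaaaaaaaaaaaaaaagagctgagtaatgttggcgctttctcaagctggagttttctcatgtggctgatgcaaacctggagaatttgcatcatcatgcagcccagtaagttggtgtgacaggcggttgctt
Srxn1: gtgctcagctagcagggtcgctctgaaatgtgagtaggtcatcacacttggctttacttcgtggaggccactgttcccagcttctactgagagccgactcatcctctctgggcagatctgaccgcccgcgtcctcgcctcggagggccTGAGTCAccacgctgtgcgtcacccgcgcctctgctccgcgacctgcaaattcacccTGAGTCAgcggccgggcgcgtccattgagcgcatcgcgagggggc

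The Gclm promoter held 1 antioxidant response element match, which began 134 bases before the start. The Slc7a11 window held no match to either motif, and the Srxn1 window held 2 AP-1 matches, 102 and 45 bases before the start, and 1 antioxidant response element match 28 bases after it. In windows from 250 bases before to 50 after the start, 14 of the 35 list genes found in RefSeq held the antioxidant response element in at least 1 promoter, which is 40.0%, beside 14% of 27025 genes with a promoter in the table. The list was made of genes known to be driven by NRF2, which binds this element, so that share does not bear on Tsc2 siRNA. Among the called genes 42 of 63 had a promoter in RefSeq, and the element was in 3 of 16 called lower and 7 of 26 called higher. The interferon response element (GAAANNGAA, 9.76% of genes) was in 3 and 1 of them, the E-box (CACGTG, 8.09%) in 0 and 3, and the AP-1 site (5.95%) in 2 and 3. An AP-1 site that reads TGACTCA and is followed by GC on the same strand is also an antioxidant response element match, so these motifs overlap in part. The Srxn1 AP-1 match 45 bases before the start reads TGAGTCA followed by GC, which does not meet the element's pattern. A match describes letters and not binding.

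Genes of the extracellular matrix and its proteases lay mostly below their controls. Of 52 genes tested, 5 were called lower and 0 higher, against 0.197% and 0.19% of all genes, and 20 had an unadjusted p under 0.05 on the lower side and 2 on the higher side, against 5.23% and 5.44%. At all 3 replicate numbers 30 were lower and 3 higher, against 16.3% and 15.5% of all genes, and the median log2 fold change was −0.26. In Chd8 siRNA against the same control libraries the list median was −0.11. Col18a1, the collagen that releases endostatin, was at 33.4, 55.2, and 47.6 CPM in control siRNA and 20.6, 25.9, and 24.6 CPM in Tsc2 siRNA, without overlap, with a log2 fold change of −0.91 (SE 0.14, edgeR adjusted p = 0.00918). Mmp12, the macrophage elastase, was at 85.6, 354, and 357 CPM and at 68.7, 217, and 191 CPM, with a log2 fold change of −0.64 (edgeR adjusted p = 0.0171). Cemip, which depolymerizes hyaluronan, A2m, a broad protease inhibitor, and Sparc, a matrix glycoprotein, had log2 fold changes of −1.29, −1.31, and −0.70 (edgeR adjusted p = 0.0188, 0.0259, and 0.0346). Hspg2, which encodes the basement membrane proteoglycan perlecan and is not on the list, was at 6.52, 19.6, and 64.4 CPM in control siRNA and 3.97, 11.1, and 34.9 CPM in Tsc2 siRNA, with a log2 fold change of −0.82 (edgeR adjusted p = 0.0106). Mmp25, a matrix metalloproteinase gene that is also not on the list, was called higher, with 0.64 (edgeR adjusted p = 0.0317).

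Several of these genes differed widely between replicate numbers, as did markers of other glial and stromal cells. Sparc was at 3.24, 29.6, and 93.7 CPM in control siRNA 1, 2, and 3, and at 2.73, 19.6, and 46.1 CPM in Tsc2 siRNA, Fn1 (fibronectin) at 21.4, 105, and 296 CPM and 20.4, 68.5, and 222 CPM, and Col1a1 at 2.56, 12.8, and 44.0 CPM and 2.01, 3.96, and 22.7 CPM. The astrocyte markers Gfap and Aqp4 were at 2.79, 2.71, and 15.3 CPM and at 0.00, 6.10, and 46.4 CPM in control siRNA, and at 1.41, 2.61, and 6.79 CPM and 0.00, 6.97, and 18.6 CPM in Tsc2 siRNA. Of the controls, control siRNA 3 stood highest for Sparc, Fn1, Col1a1, Hspg2, A2m, Cemip, and Mmp12. It also stood highest for the astrocyte and the fibroblast, mural, and endothelial sums, and for the neuron sum at 22.7 CPM beside 6.26 and 8.0 CPM. Control siRNA 3 was lowest of the controls for the oligodendrocyte sum at 98.5 CPM, and Col18a1 was highest in control siRNA 2. The 11 astrocyte markers tested went both ways, 4 above 0 and 7 below, and their median log2 differences were 0.00, 0.07, and −1.07 at replicate numbers 1, 2, and 3. None of them passed the FDR, and the part of other cells in the matrix result was not tested. Without control siRNA 3, 0 of the 52 genes were called and the median was −0.28. Without control siRNA 2, Lamc1 alone was called, and without Tsc2 siRNA 2 or Tsc2 siRNA 3 none was, with medians of −0.26, −0.32, and −0.24. Adjusted p for Col18a1 was 0.0662, 0.0554, 0.0936, and 0.0673 without control siRNA 2, control siRNA 3, Tsc2 siRNA 2, and Tsc2 siRNA 3. For Hspg2 it was 0.0746, 0.174, 0.0842, and 0.0979, and for Mmp12 0.144, 0.151, 0.143, and 0.119. Cemip gave 0.194, 0.0587, 0.208, and 0.170 without the same libraries, Sparc 0.163, 0.462, 0.142, and 0.407, and A2m 0.103, 0.419, 0.112, and 0.157, with 0.0620 for A2m without Tsc2 siRNA 1. Limma-voom did not call Cemip and Sparc, at adjusted p of 0.0535 and 0.0986.

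Signaling genes were called in both directions. Rps6ka2, which encodes the kinase RSK3 downstream of ERK, was at 19.6, 45.1, and 44.4 CPM in control siRNA and 11.9, 24.3, and 25.3 CPM in Tsc2 siRNA, with a log2 fold change of −0.81 (SE 0.12, edgeR adjusted p = 0.00918). Dusp4, a nuclear phosphatase of ERK and JNK, was at 16.1, 16.4, and 26.3 CPM and at 7.21, 8.97, and 10.6 CPM, with a log2 fold change of −1.13 (SE 0.19, edgeR adjusted p = 0.0115). Dusp1, a phosphatase of p38 and JNK, moved oppositely, from 388, 220, and 147 CPM to 495, 336, and 273 CPM, with a log2 fold change of 0.63 (edgeR adjusted p = 0.0171). Map2k4, a kinase of JNK and p38, was called higher with a log2 fold change of 0.67, and Fosl1, the AP-1 subunit FRA-1, was called lower with −1.08. Map2k4 was lost without control siRNA 2, control siRNA 3, Tsc2 siRNA 2, or Tsc2 siRNA 3, at adjusted p of 0.130, 0.215, 0.0947, and 0.141, and Fosl1 in every leave-one-out fit except that without control siRNA 2, at 0.0835 to 0.354. Rps6ka2 lost its call without control siRNA 2, control siRNA 3, or Tsc2 siRNA 2, at adjusted p of 0.0662, 0.0815, and 0.0784. Dusp4 lost it without control siRNA 1, control siRNA 3, Tsc2 siRNA 2, or Tsc2 siRNA 3, at 0.0636, 0.132, 0.0942, and 0.111, and Dusp1 without control siRNA 2, control siRNA 3, Tsc2 siRNA 2, or Tsc2 siRNA 3, at 0.120, 0.171, 0.0942, and 0.103.

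Among the higher genes ranked by p were Swap70, Fnbp1l, Myo1g, and Rcsd1, which encode regulators of actin and membranes. Swap70, Myo1g, and Rcsd1 are on none of the gene lists and are described together only by what their proteins are known to do. Swap70, which links phosphoinositides to Rac and actin, was at 141, 217, and 162 CPM in control siRNA and 190, 436, and 378 CPM in Tsc2 siRNA (log2 fold change 0.89, edgeR adjusted p = 0.00306), and without control siRNA 3 its adjusted p was 0.0554. Fnbp1l (TOCA-1), a membrane-bending activator of N-WASP, was at 311, 324, and 277 CPM and at 412, 491, and 506 CPM (log2 fold change 0.63, edgeR adjusted p = 0.00495). Myo1g, a class I myosin of blood cells, was at 49.2, 61.6, and 28.2 CPM and at 67.7, 95.0, and 57.2 CPM (log2 fold change 0.70, edgeR adjusted p = 0.00995). Rcsd1, which encodes the actin capping regulator CapZIP, was at 37.5, 44.0, and 59.4 CPM and at 50.5, 87.3, and 117 CPM (log2 fold change 0.81, edgeR adjusted p = 0.00995). Only in Fnbp1l, of these, did the groups not overlap, and it was lost without control siRNA 3, at an adjusted p of 0.0666, and fell under the fold threshold without Tsc2 siRNA 3, at 0.51. Myo1g and Rcsd1 were lost without control siRNA 2, control siRNA 3, Tsc2 siRNA 2, or Tsc2 siRNA 3, at adjusted p of 0.0653 to 0.111 and 0.0684 to 0.0942. In the actin and adhesion list, where Fnbp1l was the 1 called gene of 48 tested (0.19% of all genes were called higher) and 12 were higher and 3 lower at an unadjusted p under 0.05, Fscn1 (fascin) passed the FDR with a log2 fold change of 0.58 (edgeR adjusted p = 0.00918), and the median was 0.06. The adaptor Nck1 and the GTPase Rab32 were also called higher, with 0.65 and 0.65, and both lost their calls without any 1 of the 3 control libraries, Tsc2 siRNA 2, or Tsc2 siRNA 3, at adjusted p of 0.0662 to 0.252 and 0.121 to 0.395.

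Purine and lipid enzymes were called singly. Xdh, xanthine dehydrogenase, was at 38.1, 20.6, and 17.3 CPM in control siRNA and 57.5, 31.6, and 30.1 CPM in Tsc2 siRNA (log2 fold change 0.67, edgeR adjusted p = 0.0106), while Gda, guanine deaminase, which makes xanthine, was at 14.3, 9.91, and 12.7 CPM and at 7.90, 6.02, and 5.77 CPM (log2 fold change −0.92, edgeR adjusted p = 0.0452). Plpp3, a phosphatase of lysophosphatidic acid, was at 8.15, 17.5, and 33.3 CPM and at 3.41, 9.93, and 19.7 CPM (log2 fold change −0.92, edgeR adjusted p = 0.0106). Lpcat1, a lysophospholipid acyltransferase, and Cd5l, a scavenger protein and target of LXR, were called higher with log2 fold changes of 0.79 and 1.64. Cd5l was at 4.90, 3.88, and 2.62 CPM in control siRNA and 12.5, 7.52, and 14.9 CPM in Tsc2 siRNA, without overlap. Xdh was lost without control siRNA 2, control siRNA 3, Tsc2 siRNA 2, or Tsc2 siRNA 3, at adjusted p of 0.0684, 0.111, 0.0672, and 0.0918, and Plpp3 without the same libraries, at 0.0653, 0.0776, 0.0842, and 0.0673. Cd5l was lost without control siRNA 2, control siRNA 3, or Tsc2 siRNA 3, at 0.0530, 0.132, and 0.0672, and Gda was called in none of the leave-one-out fits, at 0.0879 to 0.450. Lpcat1 was lost without control siRNA 2, control siRNA 3, Tsc2 siRNA 2, or Tsc2 siRNA 3, at 0.0653 to 0.220.

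Of the other genes named by rank, Neat1, the long non-coding RNA that builds nuclear paraspeckles, was at 420, 329, and 226 CPM in control siRNA and 267, 211, and 137 CPM in Tsc2 siRNA. The log2 fold change of Neat1 was −0.67 (SE 0.08, edgeR adjusted p = 0.00173), beside −0.14 for its neighbour Malat1, which did not pass the FDR. Snn (stannin), a small membrane protein, was at 14.4, 25.9, and 20.7 CPM and at 27.8, 42.1, and 33.1 CPM (log2 fold change 0.77, edgeR adjusted p = 0.00995), without overlap. Leaving out control siRNA 2, control siRNA 3, Tsc2 siRNA 2, or Tsc2 siRNA 3 moved the adjusted p of Snn to 0.0565, 0.0603, 0.0842, and 0.0596. Nupr1, a stress-induced chromatin protein, was called higher with 0.66, and it was, beside Slc7a11, the 1 other called gene of 40 tested in the ATF4 list, which had 8 genes higher and 2 lower at an unadjusted p under 0.05. Of all genes, 0.19% were called higher and 0.197% lower, and 5.44% and 5.23% had an unadjusted p under 0.05 on these sides. Gatm, the first enzyme of creatine synthesis, was called higher with 1.01, and Procr, the endothelial protein C receptor, was called lower with −0.94. Gatm was lost without control siRNA 3 or Tsc2 siRNA 3, at adjusted p of 0.164 and 0.0572. Nupr1 and Procr were lost without control siRNA 2, control siRNA 3, Tsc2 siRNA 2, or Tsc2 siRNA 3, at 0.0942 to 0.184 and 0.121 to 0.162. Other protein coding genes called higher were B3galnt1, Rp2, Rcbtb2, Srp14, Mmp25, Stard7, Pirb, and Med19, with log2 fold changes of 0.64 to 0.88, and those called lower included Ptgfrn, Slc6a12, Fxyd2, Hgsnat, and Clic5, with −2.74 to −0.74. Each of these lost its call without control siRNA 2, control siRNA 3, Tsc2 siRNA 2, or Tsc2 siRNA 3, at 0.0653 to 0.364, and Mmp25, Pirb, Slc6a12, Fxyd2, and Clic5 also without control siRNA 1, at 0.0561 to 0.276.

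Some called entries could not be told from their neighbours. Nnt, which encodes the mitochondrial transhydrogenase, has 2 entries in the annotation, and the called one was at 6.60, 3.14, and 5.45 CPM in control siRNA and 1.41, 0.953, and 1.76 CPM in Tsc2 siRNA (log2 fold change −1.86, edgeR adjusted p = 0.00918), and its call was lost without control siRNA 3 or Tsc2 siRNA 2, at 0.0603 and 0.0625. Both entries share reads, since 47.8% of the 31-base words of the called one occur in other genes, and the C57BL/6J strain is known to carry a deletion in Nnt. Summed to 1 entry, Nnt was at 8.18, 7.64, and 5.45 CPM in control siRNA and 7.68, 5.26, and 4.51 CPM in Tsc2 siRNA, with a log2 fold change of −0.30 and an edgeR adjusted p = 0.726, so no change of Nnt as a whole was called. Gm20431, a read-through of Ube2v1 and its neighbour, had 203, 113, and 23 counts in control siRNA and 0 in every Tsc2 siRNA library, at least 42.5-fold lower against a floor of 3 counts per library. Its sum with those genes had a log2 fold change of −0.02 (edgeR adjusted p = 0.962). Ramp2, with 42, 30, and 12 counts against 0, was at least 10.8-fold lower, and its sum with the overlapping Vps25 had −0.18 (edgeR adjusted p = 0.836). Gm4294, of whose words 99.0% occur elsewhere, had 84, 7, and 49 counts in Tsc2 siRNA and 0 in every control library, at least 12.9-fold higher, and Gm42793 lies inside Spp1. Ramp2 was called in none of the leave-one-out fits, at adjusted p of 0.0814 to 0.302. Gm20431 was lost without control siRNA 3 or Tsc2 siRNA 2, at 0.0762 and 0.124, and Gm4294 without control siRNA 1, 2, or 3 or Tsc2 siRNA 3, at 0.0656, 0.0653, 0.0950, and 0.0673, and in limma-voom, at 0.0596.

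Genes of the TSC and mTOR machinery were described by their values, since at 0.387% of all genes called lists of this size hold few calls or none. In edgeR 0 of 12 tested members of the TSC and mTOR complexes, 0 of 27 nutrient and stress inputs, and 0 of 16 mTORC1 effectors were called, as in DESeq2 and limma-voom with the block, and 1, 2, and 1 on either side had an unadjusted p under 0.05, against 5.44% of all genes higher and 5.23% lower. The medians were 0.07, 0.07, and 0.00, and their sign depended on single libraries. With 1 library left out, they ranged from −0.05 (without Tsc2 siRNA 2) to 0.13 (without Tsc2 siRNA 1) for the complexes, from 0.00 (without control siRNA 1 or Tsc2 siRNA 1) to 0.12 (without control siRNA 3) for the inputs, and from −0.07 (without control siRNA 2) to 0.05 (without control siRNA 1 or Tsc2 siRNA 1) for the effectors. Mtor, the kinase itself, was at 61.1, 69.6, and 52.1 CPM in control siRNA and 60.3, 63.8, and 48.8 CPM in Tsc2 siRNA, and Rheb, the GTPase that TSC2 acts on, had a log2 fold change of 0.06 (SE 0.11). The S6 kinase gene Rps6kb1 and the translation repressor gene Eif4ebp1 had −0.02 (SE 0.14) and −0.01 (SE 0.16). These values concern mRNA levels, and the activity of mTORC1 was not measured in these libraries.

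Cytosolic ribosomal protein genes lay close together and mostly above 0. Of 82 genes tested, 76 had a log2 fold change above 0, against 48.3% of all genes, 52 were higher at all 3 replicate numbers, and 0 were lower at all 3. None was called by edgeR, DESeq2, or limma-voom with the block, and 22 had an unadjusted p under 0.05, all higher, against 5.44% of all genes on that side. The median was 0.15, with medians of 0.26, 0.05, and 0.16 at replicate numbers 1, 2, and 3. Rps24 had the lowest p, at 253, 311, and 262 CPM in control siRNA and 352, 366, and 327 CPM in Tsc2 siRNA (log2 fold change 0.34, edgeR adjusted p = 0.115), and Rps6, whose protein is the classical target of S6 kinase, had 0.23 (edgeR adjusted p = 0.278). The median was 0.13 under upper quartile normalization and 0.08 without control siRNA 1. In Chd8 siRNA against the same control libraries the list median was −0.01.

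**Figure D3:**
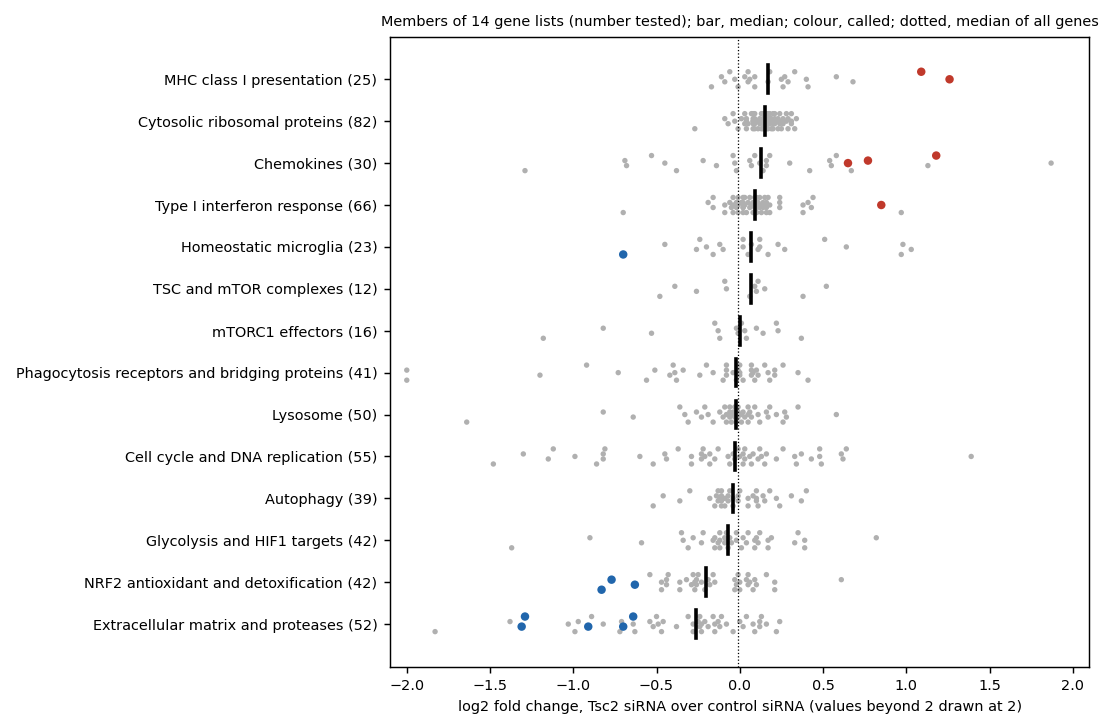
Log2 fold change of Tsc2 siRNA over control siRNA for each tested member of 14 gene lists, with the number tested in brackets, the list median as a black bar, and called genes in red or blue. The matrix (median −0.26) and NRF2 (−0.20) lists lie left of the dotted median of all genes (−0.01), the ribosomal (0.15) and class I (0.17) lists right of it, and 2 members beyond 2 log2 units are drawn at the edge.

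The lists of processes downstream of mTORC1 are likewise short for a share of 0.387% called. In edgeR 0 of 50 tested lysosomal genes, 0 of 39 autophagy genes, 0 of 55 cell cycle genes, and 0 of 27 cholesterol genes were called, and DESeq2 and limma-voom with the block called 0 of them as well. At an unadjusted p under 0.05 there were 6 lysosomal genes higher and 4 lower, 1 autophagy gene higher and 2 lower, 1 cell cycle gene lower, and 0 cholesterol genes, against 5.44% and 5.23% of all genes. Sqstm1, the autophagy receptor p62, was at 1790, 1820, and 2450 CPM in control siRNA and 1560, 2220, and 2530 CPM in Tsc2 siRNA, and Lamp1, a lysosomal membrane protein, had a log2 fold change of 0.06. In the glycolysis list 0 of 42 genes were called by edgeR and limma-voom, with 4 higher and 6 lower at an unadjusted p under 0.05, and DESeq2 called Adm. Pkm, pyruvate kinase, passed the FDR with a log2 fold change of −0.28 (edgeR adjusted p = 0.0457), at 1280, 838, and 872 CPM against 1110, 659, and 706 CPM, and Hif1a had −0.31 (edgeR adjusted p = 0.0997). Slc2a1 and Ldha, for glucose import and lactate, had −0.02 and −0.02.

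Genes of phagocytosis were described by their values, since a list of 41 holds few calls or none where 0.387% of all genes are called. In edgeR and limma-voom 0 of the 41 were called, 6 had an unadjusted p under 0.05 on the higher side and 9 on the lower side, against 5.44% and 5.23% of all genes, DESeq2 called Itgax lower, and the median was −0.02. Colec12, a scavenger receptor, passed the FDR below the fold threshold, at 223, 202, and 197 CPM in control siRNA and 162, 137, and 137 CPM in Tsc2 siRNA (log2 fold change −0.51, edgeR adjusted p = 0.00995). Lrp1, a receptor for apolipoprotein E and dying cells, had −0.38 (edgeR adjusted p = 0.0563), also without overlap, and Mertk, Axl, Cd36, and Trem2 had 0.02, 0.00, −0.10, and 0.07. None of 21 Fc receptor genes and none of 22 complement genes was called by edgeR or limma-voom, and DESeq2 called Itgax among the latter. An unadjusted p under 0.05 was found for 7 Fc receptor genes, all higher, and for 5 complement genes on the higher and 4 on the lower side, against the same shares of all genes. The homeostatic gene P2ry12 was at 1.66, 2.09, and 0.686 CPM in control siRNA and 2.26, 0.953, and 1.84 CPM in Tsc2 siRNA. Aif1, the microglial marker IBA1, passed the FDR, at 75.8, 71.4, and 44.7 CPM against 93.6, 90.7, and 85.5 CPM, without overlap (log2 fold change 0.53, edgeR adjusted p = 0.0452).

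The knockdowns were compared directly, which asks whether a called gene differed between Tsc2 siRNA and Chd8 siRNA. In edgeR 36 of 16273 genes were called in that contrast (0.221%), and 61 passed the FDR without the fold threshold (0.375%). Of the 63 genes called against control, 10 differed between the knockdowns at an adjusted p under 0.05. Ccl22 was at 16.1, 85.2, and 50.7 CPM in Chd8 siRNA, a log2 difference of 1.05 (SE 0.12, edgeR adjusted p = 0.00373) for Tsc2 siRNA minus Chd8 siRNA. Csf3 was at 137, 69.1, and 129 CPM in Chd8 siRNA and differed by −0.60 (SE 0.09, edgeR adjusted p = 0.0156). Col18a1 was at 25.9, 51.2, and 54.1 CPM in Chd8 siRNA and differed by −0.83 (edgeR adjusted p = 0.0209). Rcsd1, Myo1g, Snn, and Cx3cl1 were higher in Tsc2 siRNA than in Chd8 siRNA, with log2 differences of 0.69, 0.66, 0.66, and 0.71, and Spp1, Enc1, and the called Nnt entry were lower, with −0.49, −0.76, and −2.27. Summed over both entries, Nnt was at 7.68, 5.26, and 4.51 CPM in Tsc2 siRNA and 6.70, 5.93, and 7.03 CPM in Chd8 siRNA. The value of −2.27 therefore describes the called entry and not Nnt as a whole. The call of Enc1 against control was lost in all 6 leave-one-out fits, at adjusted p of 0.0762 to 0.174, and in limma-voom, at 0.0543. For the other 53 genes this test found no difference at the FDR, which does not show that the knockdowns acted alike, and the values of Fgl2, Hmox1, and Slc7a11 were 0.56, −0.20, and 0.09. The SEs of these 3 differences were 0.14, 0.08, and 0.10. In this contrast, too, single libraries mattered, with 6 genes called without Tsc2 siRNA 3 and 130 without Tsc2 siRNA 1. Against control siRNA, 59 of the 63 genes had the same sign in Chd8 siRNA, and Ccl22, Cx3cl1, Enc1, and the called Nnt entry had the other. Both knockdowns were set against the same control libraries, so these signs are not independent. Among the genes that also passed the FDR in Chd8 siRNA were Fgl2, Ifi27l2a, Neat1, Hmox1, Slc7a11, and Cd5l. Their log2 fold changes there were 0.98, 0.67, −0.76, −0.43, −0.86, and 2.11.

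**Figure D4:**
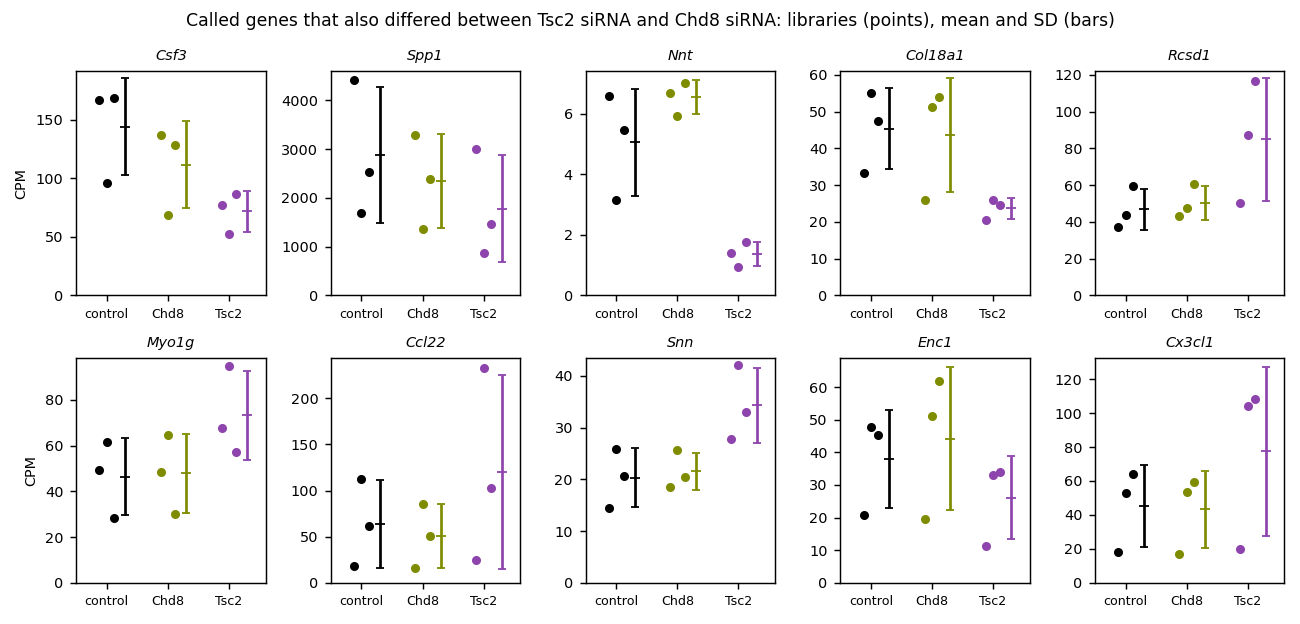
CPM of the 10 called genes that also differed between the knockdowns, with the 3 libraries of each group as points and the mean and SD as bars. Ccl22, Rcsd1, Myo1g, Snn, and Cx3cl1 have their highest mean in Tsc2 siRNA and Csf3, Spp1, Nnt, Col18a1, and Enc1 their lowest, and Chd8 siRNA means of Csf3 (112 CPM) and Spp1 (2340 CPM) lie between the other groups.

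**Figure D5:**
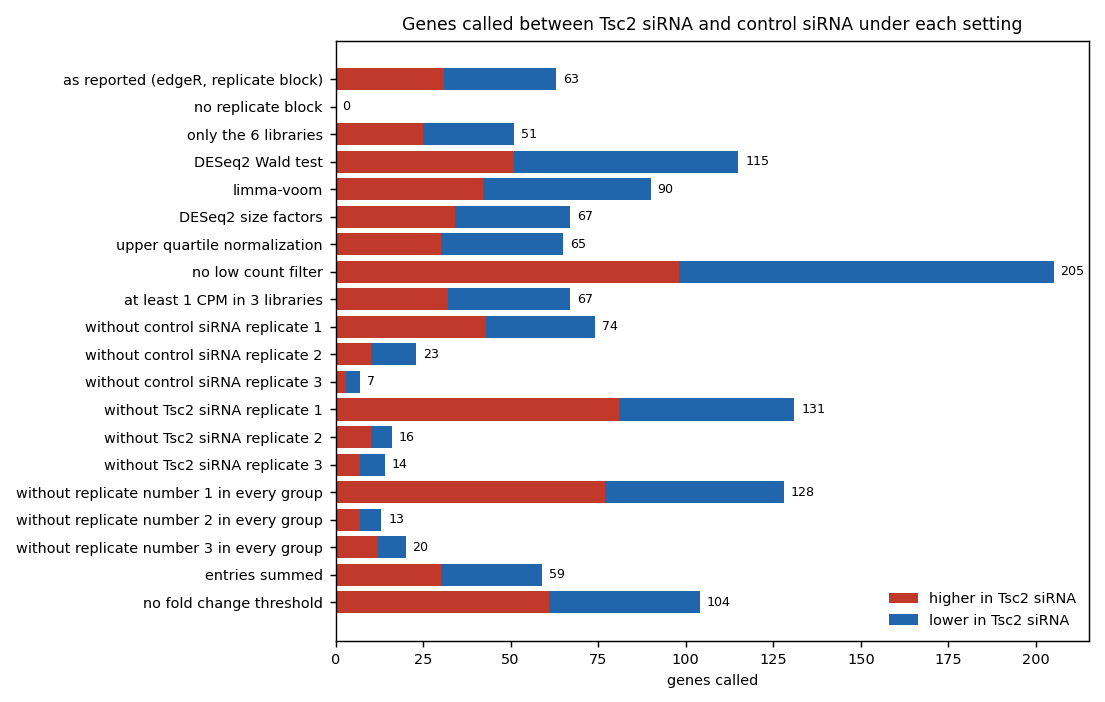
Number of genes called between Tsc2 siRNA and control siRNA on the horizontal axis, higher in red and lower in blue, under each processing setting. The count was 63 as reported, 0 without the replicate block, 205 without a filter on low counts, and 7 without control siRNA 3.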

How the data were processed

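The authors deposited estimated counts per transcript, which they made with salmon 0.14.1 against mm10 and imported with tximport, and the annotation release is not given in the sources used here. The sources differ on the library kit, which the sample labels give as a stranded SMARTer kit and the methods as an Illumina total RNA kit. Here transcripts were summed to genes of GENCODE on GRCm38 (139852 of 140948 matched, leaving out 0.27% of counts) and rounded. Genes passing filterByExpr (16273 of 54119) were tested over all 9 libraries with edgeR 4.0.16 in R 4.3.3, with TMM normalization, the quasi-likelihood test, Benjamini-Hochberg adjustment, and the replicate number as a block. The residual degrees of freedom were 4. A gene was called where its adjusted p was under 0.05 and its change at least 1.5-fold.

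The block was kept because every pair of same-numbered control siRNA and Tsc2 siRNA libraries deviated together from its group means, with correlations over genes of 0.48, 0.25, and 0.35. Differently numbered pairs gave −0.36 to 0.04. Deviations from a group mean cancel within the group, so positive same-number values force the others down, and that range is no separate evidence of pairing. The pairing comes from these correlations and the numbers in the labels.

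The text names Tsc2, the 12 called genes with the lowest p in each direction (1 of which is not reported here), other called genes, and for each gene list its called members and up to 4 members that are best known or have the lowest p, beside genes that mark microglia, phagocytosis, and cytokine release. Other list members named were chosen after their values were seen. Gene lists and comparisons were chosen with earlier results of these data known. Shared sequence was counted in words of 31 bases. The test was run on simulated counts for 15739 genes, 200 of them changed by 1 log2 unit. With the block it recovered 174 with 20 false calls, and without the block 43 with 0 false calls. The false calls with the block were a larger share of the calls than the FDR of 0.05. The gain from the block depends on how far replicate numbers differ in the simulated counts. It is therefore no separate evidence for the block. Alternatives were DESeq2 1.42.0, limma-voom 3.58.1, other scalings and filters, 6 libraries only, no block, and leaving out libraries. Figures were drawn with matplotlib 3.10.9.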

Additional observations from a re-analysis of the deposited data

How the results depend on the processing

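The replicate block decided the calls. Without the replicate block edgeR called 0 genes between Tsc2 siRNA and control siRNA, in place of 63, with 425 at an unadjusted p under 0.05, and 0 between Tsc2 siRNA and Chd8 siRNA, in place of 36, with 504. The biological coefficient of variation was 0.234 with the block and 0.408 without it.

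For Tsc2 siRNA against control siRNA, DESeq2 called 115 genes (51 higher, 64 lower), no filter on low counts gave 205 (98 higher, 107 lower), and no fold threshold gave 104. Leaving out 1 library gave 7 to 131, with 23 and 7 without control siRNA 2 and 3 and 131, 16, and 14 without Tsc2 siRNA 1, 2, and 3. Leaving out replicate number 1, 2, or 3 in every group, chosen after seeing the data, gave 128, 13, and 20. Of the 63 genes, 59 kept their calls in DESeq2, which called neither Nos2 nor H2-Q7 and gave no adjusted p for Gm4294 and Ramp2. In limma-voom 55 kept their calls, 61 did without the filter, and 49 with 6 libraries only, where Map2k4, Nfkbid, Sparc, Cx3cl1, and Gda were among those lost, at adjusted p of 0.0504 to 0.0870. For Tsc2 siRNA against Chd8 siRNA, DESeq2 called 103, limma-voom 58, no filter 176, and no fold threshold 61. Leaving out 1 library there gave 6 to 130, with 130, 7, and 6 without Tsc2 siRNA 1, 2, and 3, and leaving out replicate number 1, 2, or 3 in every group gave 136, 1, and 5. The cause of these shifts was not tested. No called gene changed direction under the alternatives run.

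Precision was limited by 3 libraries a group, 4 residual degrees of freedom, and a floor of 0.0903 to 0.177 CPM, and detection by expression level was not tested. The median log2 fold change of all genes lay between −0.03 and 0.01 under the alternatives.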
